A study of Rattus norvegicus with 6 samples.

Results

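The 10 genes described here, Cdkn1a, Mdm2, Ccng1, Fas, Psrc1, Btg2, Phlda3, Zmat3, Sesn1 and Sesn2, are known transcriptional targets of the tumour suppressor p53. Their probes were found through the accession printed for each probe on the array, matched to RefSeq gene names. They are 10 of the 15639 genes named on the array in this way. The match gave 18 probes of the 61537 non-control probes, for 9 of the 10 genes; no probe was matched to Sesn1, which is not analysed here. The arrays, 1-colour Agilent microarrays read with the dye Cy3, measured renal cortex of male Sprague-Dawley rats of the Crl:CD(SD) strain, bought at 5 weeks of age. Of the 6 rats, 3 had been given corn oil, the vehicle, and 3 had been given monuron, a phenylurea herbicide, at 200 mg/kg/day, both for 4 weeks. No rat carried a transgene or a deletion in p53 or its targets, as far as the labels say, so each comparison is of dosed with vehicle-treated cortex only.

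p53 is held low in undisturbed cells because Mdm2, itself a p53 target, marks it for destruction. Damage to DNA and other stresses stop this, and p53 then accumulates as protein and switches on genes that halt the cell cycle (Cdkn1a, which encodes the cyclin-dependent kinase inhibitor p21, and Btg2), feed back on p53 (Mdm2, Ccng1), open the way to cell death (Fas, Phlda3) or restrain growth and oxidative stress (the sestrins). In the kidney, tubule cells are known to make p21 after toxic injury. Several of these genes also answer to other factors, so the level of their messenger RNA alone does not say which one acted.

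p53 binds DNA as a tetramer on paired copies of a 10-base half-site. Both strands of the RefSeq promoters of build GRCr8, from 250 bases before to 50 bases after the transcription start, were searched for the half-site. It was found in 3 of the 9 member promoters in the table, those of Ccng1, Cdkn1a and Sesn1, and in 7.98% of all 33469 promoters. The stretches around the matches of Cdkn1a and Ccng1 are shown because these genes had the largest called changes among the members, with the half-site in capitals.
Cdkn1a, chr20:7150706-7150765, plus strand: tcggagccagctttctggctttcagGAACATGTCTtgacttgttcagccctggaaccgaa
Ccng1, chr10:25685074-25685126, minus strand: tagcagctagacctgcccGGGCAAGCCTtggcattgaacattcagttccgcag
The half-site of Cdkn1a lay 201 to 192 bases before the start, and that of Ccng1 lay 232 to 223 bases before it. The letters TGACNNNGC, the core of the antioxidant response element that the oxidative stress factor NRF2 binds, were searched in the same way on both strands, and were found in the promoters of Cdkn1a and Sesn2 and in 12.1% of all promoters. The match in Cdkn1a lay 247 to 239 bases before the start and did not overlap its half-site. A match describes the letters only, and binding was not measured.

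Each group had a slide and a scan day of its own, so effects of the slide or of the scan cannot be told apart from those of monuron in any result here. The share of probes well above background ran from 60.9% to 70.4% over the arrays. Markers of the labelled tissue were present: 6 of 6 proximal tubule markers were detected, with a summed level of 1350 to 1492 on the corn oil arrays and 1176 to 1292 on the monuron arrays. Level here means a probe's processed signal divided by the array's 75th percentile, so that a level of 1 is the 75th percentile itself. Liver transcripts were detected in cortex, with all 10 hepatocyte markers past the detection filter and 0 of 10 called different. Their summed level was 20.5 to 41.4 on the corn oil arrays, highest on replicate 3, and 28.8 to 62.7 on the monuron arrays, highest on replicate 1. In bulk cortex, more cells of a type and more RNA per cell cannot be told apart.

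Of the 18 member probes, 17 passed the detection filter, which asks that the scanner software mark a probe as well above background on every array of a group. In monuron-dosed cortex 5 of them were called higher and 0 lower, from 4 genes: Cdkn1a with 2 probes, and Ccng1, Fas and Psrc1 with 1 probe each. Among all 41125 probes tested, 0.832% were called higher and 0.391% lower (limma, Benjamini-Hochberg adjusted p under 0.05). All monuron arrays lay above all corn oil arrays for 12 of the 17 probes, against 14.9% of all probes tested, and the reverse held for 0 of the 17, against 10.7%. Of the 17, 4 passed only through the monuron arrays, which makes a higher value there more likely by the choice itself. Over the 13 member probes well above background on all 6 arrays, 4 were called higher, against 0.879% of such probes, and 10 had all monuron arrays above all corn oil arrays, against 14.4%. The log2 fold change was above 0 for 15 of the 17 (54.2% of all probes tested) and for 12 of the 13 (51.6% of all probes detected on all 6 arrays). The median log2 fold change of the 13 was 0.52, and that of all probes detected on all 6 arrays was 0.01.

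**Figure D1:**
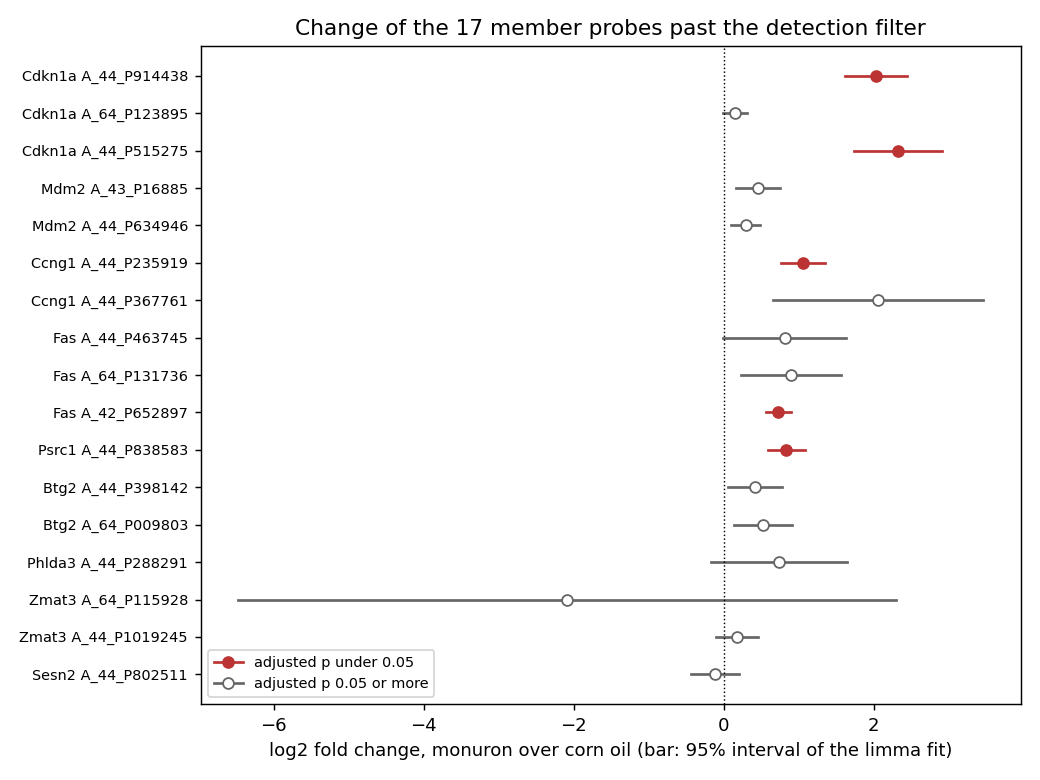
Log2 fold change (monuron over corn oil, 3 arrays per group) of the 17 member probes past the detection filter, with bars for the 95% confidence interval and filled points for an adjusted p under 0.05. The called points are the Cdkn1a probes at 2.32 and 2.04, Ccng1 at 1.06, Psrc1 at 0.84 and Fas at 0.73, and the widest intervals are those of Zmat3 A_64_P115928 and Ccng1 A_44_P367761.

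Cdkn1a encodes p21, the inhibitor that stops cyclin-dependent kinases and holds cells before DNA replication. It was called higher on 2 of its 3 probes. Of these, A_44_P515275 passed the detection filter only through the monuron arrays. Probe A_44_P914438 had levels of 2.18, 2.12 and 2.19 on the corn oil arrays and of 6.78, 10.4 and 9.92 on the monuron arrays. The groups were far apart, with corn oil arrays nearly equal and monuron replicate 1 the lowest of the dosed ones. Its mean level was 2.16 ± 0.0369 (SD, n = 3) against 9.02 ± 1.95 (SD, n = 3), a 4.10-fold rise (95% interval 3.07 to 5.48, log2 fold change 2.04 ± 0.17 SE, limma adjusted p = 0.0118).

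On the deposited signals, the dim Cdkn1a probe A_44_P515275 moved by a similar factor. Its levels were 0.0378, 0.0223 and 0.0210 with corn oil and 0.117, 0.141 and 0.135 with monuron. The groups did not overlap, but only 1 of the 3 corn oil arrays was well above background, so its vehicle level is poorly measured. The rise was 5.01-fold (95% interval 3.33 to 7.52, log2 fold change 2.32 ± 0.24 SE, limma adjusted p = 0.0199). The probe passed the detection filter only through the monuron arrays, and its fold depends on how background is treated. With normexp background correction, which adds an offset of 50 units, its log2 fold change was 0.87.

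The third Cdkn1a probe, A_64_P123895, was the brightest of the gene and hardly differed between the groups. Its levels were 24.6, 27.0 and 25.1 with corn oil and 28.0, 28.7 and 28.3 with monuron. Every monuron array lay above every corn oil array, by a small margin: the fold was 1.11 (log2 fold change 0.15 ± 0.07 SE, 95% interval -0.01 to 0.31), and it was not called (limma adjusted p = 0.318). Scaled to the spike-in controls instead of the 75th percentile, this probe was called lower, at -0.34 (limma adjusted p = 0.0102), while A_44_P914438 was called higher at 1.55 and the median of all probes was -0.47, below both.

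The probes of Cdkn1a therefore differed from one another. Within arrays, the change of A_44_P914438 exceeded that of A_64_P123895 by 1.89 ± 0.19 (SE) on the log2 scale, and that of the dim A_44_P515275 exceeded it by 2.18 ± 0.30. With normexp background correction the log2 fold changes were 2.01 for A_44_P914438, 0.87 for A_44_P515275 and 0.075 for A_64_P123895, so the size of the last difference depended on the background. On the deposited signals the groups did not overlap in these differences between probes. The 2 rising probes differed from each other by 0.29 ± 0.29 (two-sided exact permutation p = 0.4), which gives no order between them. With 3 arrays against 3 the exact test cannot go below 0.1, the value of both former pairs (0.333 after adjustment over the 10 probe pairs of the members). The choice of probe thus set whether the gene differed 4.10-fold or 1.11-fold, and the part of the transcript each probe reads is not analysed here. Averaged over its 3 probes, Cdkn1a had a log2 fold change of 1.50 ± 0.12 (SE, limma adjusted p = 0.011). That average joins probes that disagree, so it settles no size for the gene. It also includes A_44_P515275, which passed the detection filter only through the monuron arrays.

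**Figure D2:**
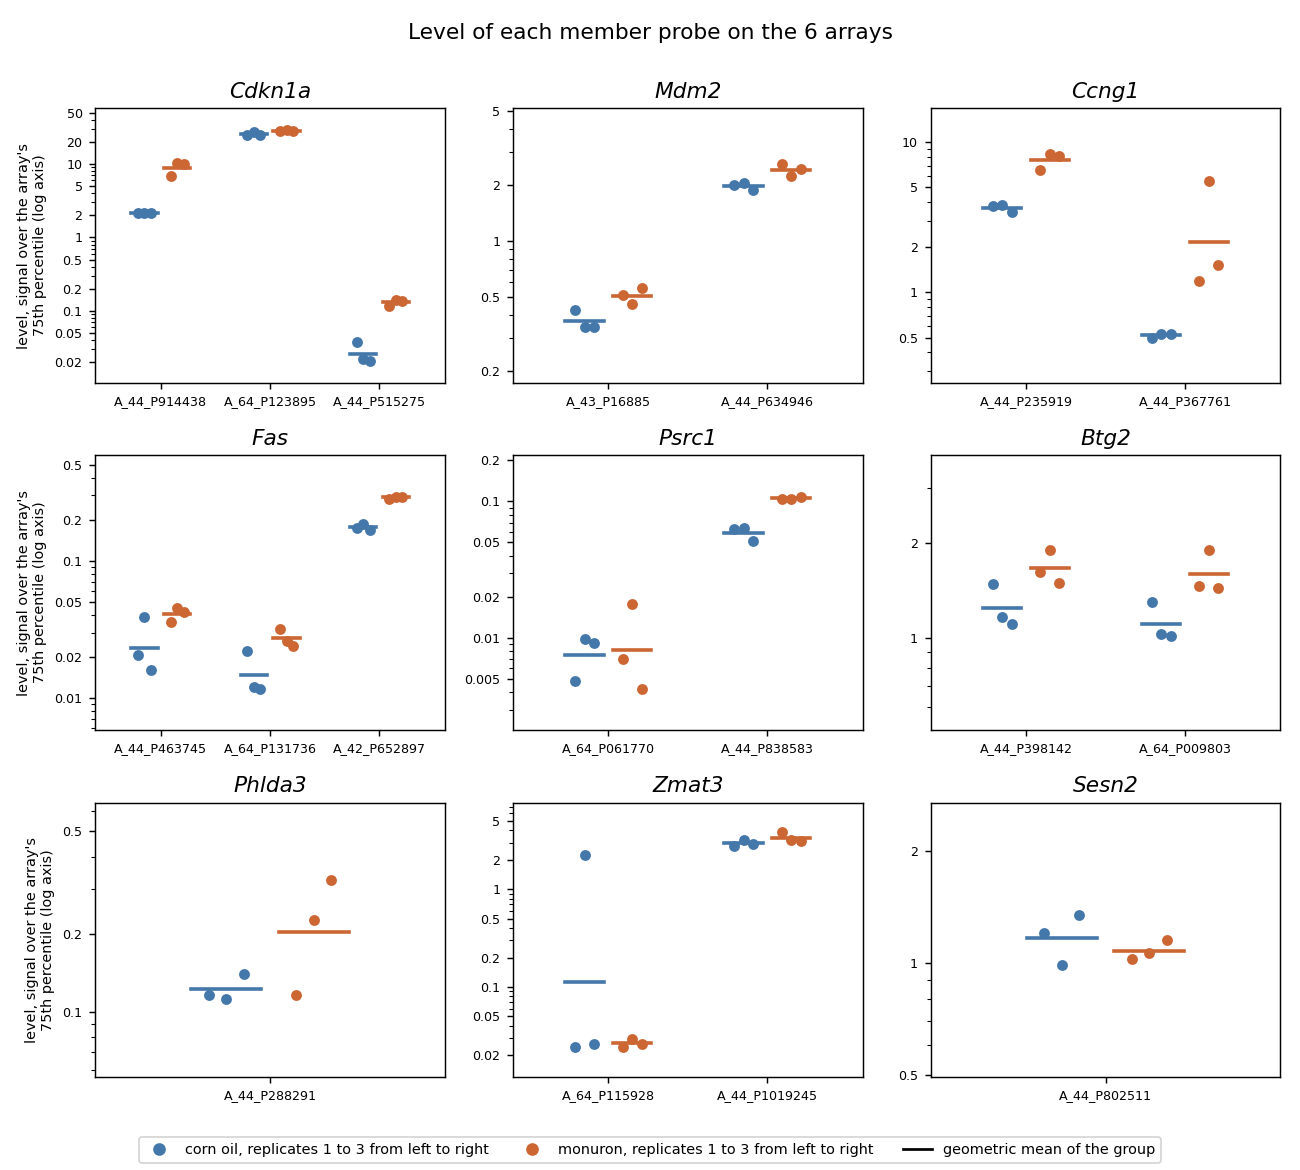
Level of each member probe (signal over the array's 75th percentile, log axis) on every array, 1 panel per gene, corn oil in blue and monuron in orange, with a line at the geometric mean of each group. Cdkn1a A_44_P914438 lies at 2.12 to 2.19 with corn oil and at 6.78 to 10.4 with monuron, while A_64_P123895 stays between 24.6 and 28.7. Single arrays stand apart in Zmat3 (2.25) and Ccng1 (5.55).

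Ccng1 encodes cyclin G1, a cyclin relative that recruits a phosphatase to Mdm2. Its brighter probe A_44_P235919 had levels of 3.78, 3.82 and 3.42 with corn oil and of 6.53, 8.42 and 8.10 with monuron. Every dosed array lay well above the vehicle arrays, and monuron replicate 1 was again the lowest of the dosed ones. The mean went from 3.67 ± 0.221 to 7.69 ± 1.01 (SD, n = 3 each), a 2.08-fold rise (95% interval 1.71 to 2.54, log2 fold change 1.06 ± 0.12 SE, limma adjusted p = 0.0246).

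The dimmer Ccng1 probe A_44_P367761 had levels of 0.500, 0.527 and 0.526 with corn oil and of 1.19, 5.55 and 1.52 with monuron. The groups did not overlap, and 1 monuron array, replicate 2, was far above the others. The fold was 4.17 with an interval of 1.57 to 11.0 (limma adjusted p = 0.163), and leaving out monuron replicate 2 moved the log2 fold change from 2.06 to 1.38 (adjusted p = 0.0601). The difference in change between both Ccng1 probes was 1.00 ± 0.62 (two-sided exact permutation p = 0.1, adjusted 0.333). Both probes were higher on every monuron array, by factors that were not settled. Their average differed by 1.56 ± 0.33 (SE) on the log2 scale and was not called (limma adjusted p = 0.0979).

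Btg2 encodes an antiproliferative protein that speeds the decay of messenger RNAs. Probe A_44_P398142 had levels of 1.48, 1.17 and 1.11 with corn oil and 1.62, 1.91 and 1.49 with monuron. Probe A_64_P009803 had levels of 1.30, 1.02 and 1.01 with corn oil and 1.46, 1.91 and 1.44 with monuron. On both probes every monuron array lay above every corn oil array, though for A_44_P398142 the highest vehicle array nearly met the lowest dosed one. The folds were 1.34 (95% interval 1.04 to 1.72, limma adjusted p = 0.234) and 1.44 (1.10 to 1.87, adjusted p = 0.181), and neither was called. Scaled to the spike-in controls, the log2 fold changes were -0.068 and 0.035, beside a median of all probes of -0.47.

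Psrc1 encodes a microtubule-binding protein of the mitotic spindle. Its probe A_44_P838583 had levels of 0.0624, 0.0639 and 0.0512 with corn oil and of 0.104, 0.104 and 0.108 with monuron. The dosed arrays were nearly equal and all above the vehicle arrays. The mean went from 0.0592 ± 0.00693 to 0.105 ± 0.00259 (SD, n = 3 each), a 1.79-fold rise (95% interval 1.50 to 2.13, log2 fold change 0.84 ± 0.10 SE, limma adjusted p = 0.0319), and with normexp background correction the log2 fold change was 0.43. The other Psrc1 probe, A_64_P061770, was not well above background on any array and was not tested.

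Mdm2 encodes the ubiquitin ligase that limits p53 and is itself switched on by it. Probe A_43_P16885 had levels of 0.424, 0.345 and 0.345 with corn oil and 0.511, 0.460 and 0.556 with monuron. Probe A_44_P634946 had levels of 1.98, 2.03 and 1.88 with corn oil and 2.58, 2.24 and 2.43 with monuron. On both probes the dosed arrays lay above all vehicle arrays by a small margin. The folds were 1.37 (log2 fold change 0.46 ± 0.12 SE, limma adjusted p = 0.145) and 1.23 (95% interval 1.07 to 1.40, adjusted p = 0.154), and neither passed the threshold. Scaled to the spike-in controls, the log2 fold changes were -0.032 and -0.19, a scale that moved probes alike by -0.49 and put the median of all probes at -0.47, below both Mdm2 probes.

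Fas encodes the cell surface receptor through which Fas ligand starts cell death. Its brightest probe A_42_P652897 had levels of 0.172, 0.186 and 0.168 with corn oil and of 0.285, 0.292 and 0.294 with monuron. All arrays of a group lay close together and the groups were clearly apart. The mean went from 0.175 ± 0.00946 to 0.290 ± 0.00482 (SD, n = 3 each), a 1.66-fold rise (95% interval 1.47 to 1.86, log2 fold change 0.73 ± 0.07 SE, limma adjusted p = 0.0152).

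The other Fas probes were dim, with 1 of 3 corn oil arrays well above background on each. Probe A_64_P131736 had levels of 0.0220, 0.0121 and 0.0117 with corn oil and 0.0320, 0.0260 and 0.0241 with monuron, which did not overlap (fold 1.86, limma adjusted p = 0.185). Probe A_44_P463745 had levels of 0.0204, 0.0390 and 0.0159 with corn oil and 0.0357, 0.0452 and 0.0426 with monuron, which overlapped (log2 fold change 0.81 ± 0.33 SE, adjusted p = 0.288). The 3 Fas probes gave log2 fold changes of 0.73 to 0.90, and their differences from one another had exact permutation p-values of 0.6 to 1, in a design that cannot go below 0.1. With normexp background correction the dim probes had 0.077 for A_64_P131736 and 0.20 for A_44_P463745 while A_42_P652897 had 0.57, and with a floor on low values A_64_P131736 had 0.032, so the dim probes add little on the size. Averaged, the 3 probes differed by 0.81 ± 0.14 (SE) and were not called (limma adjusted p = 0.0694). That average includes the dim probes, which passed the detection filter only through the monuron arrays.

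Phlda3 encodes a protein that blocks the survival kinase Akt. Its probe A_44_P288291 had levels of 0.116, 0.113 and 0.141 with corn oil and 0.117, 0.228 and 0.323 with monuron. Monuron replicate 1 was at the vehicle level and the other dosed arrays were above every vehicle array, so the groups overlapped. The log2 fold change was 0.74 ± 0.37 SE (95% interval -0.16 to 1.65, limma adjusted p = 0.362), 1.15 without monuron replicate 1 (adjusted p = 0.12) and 0.42 without monuron replicate 3 (adjusted p = 0.586). Replicate 1 was also the dosed array with the highest summed hepatocyte level, 62.7. With the hepatocyte score of each array as a covariate the log2 fold change was 0.99 (adjusted p = 0.369), and without that array and corn oil replicate 3 it was 1.25 (adjusted p = 0.213).

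Zmat3 encodes an RNA-binding zinc finger protein that regulates splicing. Probe A_44_P1019245 had levels of 2.75, 3.22 and 2.93 with corn oil and 3.86, 3.17 and 3.09 with monuron. The groups overlapped and the log2 fold change was 0.18 ± 0.12 SE (limma adjusted p = 0.466). The dim probe A_64_P115928 had levels of 0.0240, 2.25 and 0.0261 with corn oil and 0.0242, 0.0294 and 0.0259 with monuron, so its fold change of -2.09 ± 1.79 on the log2 scale (adjusted p = 0.59) came from corn oil replicate 2. Without that array the value was 0.078 (adjusted p = 0.794).

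Sesn2 encodes a sestrin, a stress protein that restrains growth signalling through the kinase mTOR. Its probe A_44_P802511 had levels of 1.20, 0.988 and 1.35 with corn oil and 1.02, 1.06 and 1.15 with monuron. The groups overlapped, with a log2 fold change of -0.12 ± 0.13 SE (95% interval -0.43 to 0.20, limma adjusted p = 0.683). Scaled to the spike-in controls, the probe was called lower, at -0.60 (adjusted p = 0.00855), beside a median of all probes of -0.47.

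The pathway around the members was described from lists of other genes, chosen with earlier results of these data known, with the brightest detected probe for each gene. Over all lists, 142 of 171 genes passed the detection filter, and 21 were called, all of them higher. Among all genes with 1 probe each, 0.896% were called higher and 0.397% lower, with a median log2 fold change of 0.02. The mitotic list held 11 of the calls, and 3 of the 5 lists of p53 regulators and other p53 targets held 0.

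**Figure D3:**
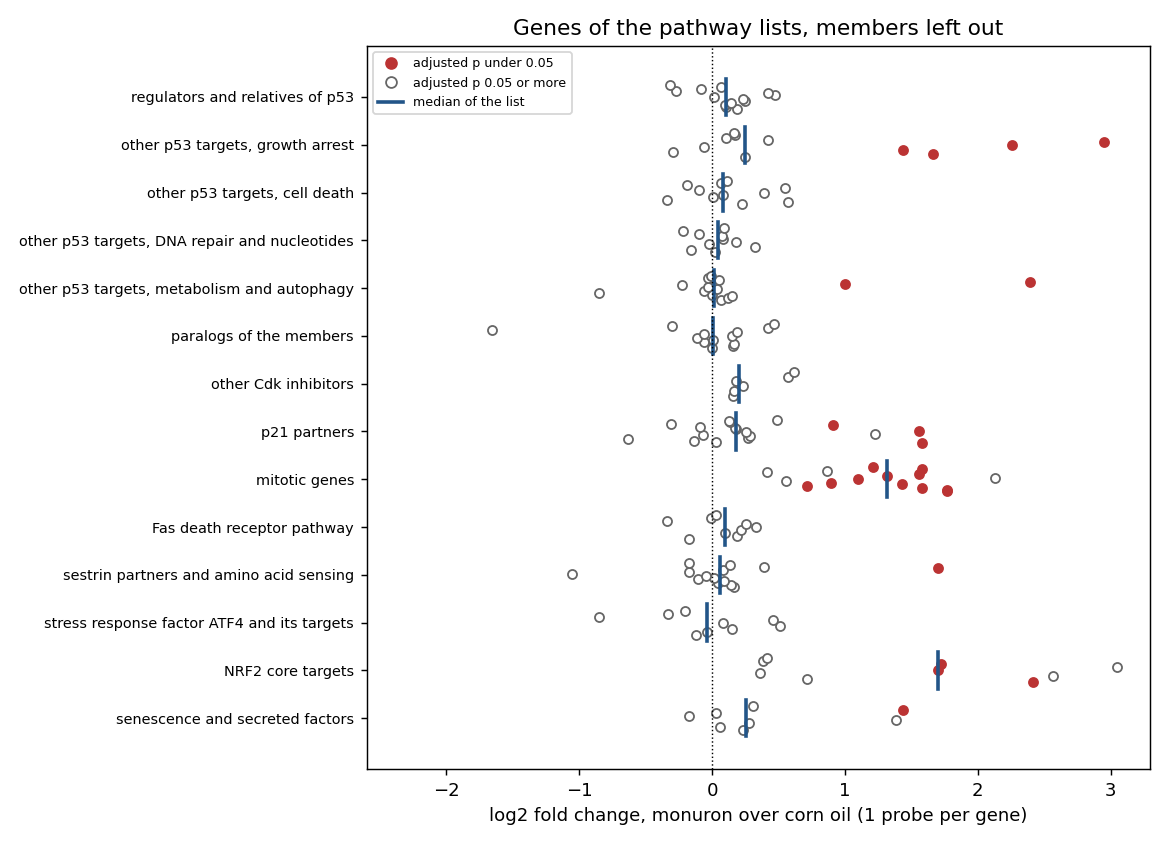
Log2 fold change (monuron over corn oil, 1 probe per gene) of the genes of each list, members left out, with filled points for an adjusted p under 0.05 and a bar at each list's median. The medians of the mitotic genes (1.32) and of the NRF2 targets (1.70) stand to the right, and those of the other lists lie between -0.04 and 0.25.

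Of regulators and relatives of p53, 13 of 16 genes were tested and 0 were called. Mdm4, the partner of Mdm2, differed by 0.19 ± 0.09 (SE) on the log2 scale (limma adjusted p = 0.371). p53 protein was not measured.

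Of other p53 targets listed under growth arrest, 4 of 11 tested were called higher: Ckap2, Gdf15, Plk2 and Gtse1, the last detected on the monuron arrays only. The name of the list does not say that each of its genes halts growth. Ckap2, a spindle protein, had levels of 0.238, 0.222 and 0.198 with corn oil and 0.985, 1.19 and 0.983 with monuron (4.79-fold, limma adjusted p = 0.00564), and all 3 of its probes were called. Gdf15, a secreted stress cytokine, had levels of 1.22, 1.02 and 0.958 against 2.78, 3.02 and 2.81 (2.70-fold, adjusted p = 0.01). In both genes every dosed array lay above every vehicle array. Plk2, a kinase of the centrosome cycle, rose 3.17-fold (adjusted p = 0.0261), and Gtse1, which moves p53 out of the nucleus, was at least 2.88-fold higher, since no corn oil array was well above background; it entered the test only through the monuron arrays (adjusted p = 0.0126). The median of the 11 was 0.24. Gadd45a, a p53 target of DNA damage, differed by 0.24 on the log2 scale and did not pass the test (adjusted p = 0.371).

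Of p53 targets in cell death, 0 of 11 tested were called, with a median of 0.08. Bbc3, the death activator PUMA, had levels of 0.876, 0.755 and 0.928 with corn oil and 1.26, 1.27 and 1.26 with monuron. The groups did not overlap, yet the 1.49-fold difference missed the threshold (limma adjusted p = 0.0582). On the log2 scale Bax, the mitochondrial pore protein, differed by 0.23 (adjusted p = 0.316). Of the other genes of the Fas death receptor pathway, 0 of 9 were called, with a median of 0.10. Faslg, the ligand, had a log2 fold change of -0.17 ± 0.25 (SE).

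Of p53 targets in DNA repair and nucleotide supply, 0 of 10 were called, with a median of 0.05. Ddb2, which recognises ultraviolet lesions, had a log2 fold change of 0.02 ± 0.06, and Rrm2b, a ribonucleotide reductase subunit, one of 0.32. Of the targets in metabolism and autophagy, 2 of 14 were called higher, Ephx1 and Abcb1b. Ephx1, a xenobiotic epoxide hydrolase, rose 2.00-fold (limma adjusted p = 0.0325). Abcb1b, a drug efflux pump, rose 5.25-fold (limma adjusted p = 0.0443), and 2 of its 3 probes were called. Both are also known targets of nuclear receptors that sense foreign compounds.

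Of paralogs of the members, 0 of 13 were called, with a median of 0.01. The smallest p-values were those of Tob1, a relative of Btg2 (log2 fold change 0.42 ± 0.09 SE, limma adjusted p = 0.102), of the death receptor Tnfrsf1a (0.47 ± 0.14, adjusted p = 0.174) and of Zmat4 (-1.66 ± 0.57, adjusted p = 0.228), whose groups did not overlap. The direct relatives Ccng2, Btg1 and Sesn3 lay close to 0, at 0.00 ± 0.10, -0.06 and -0.06 ± 0.20. Of other inhibitors of cyclin-dependent kinases, 0 of 6 were called. Cdkn1b and Cdkn1c, of the same family as p21, each had a log2 fold change of 0.16 on the brightest probe. The 5 probes of Cdkn1c ran from -0.17 to 0.16, and those of Cdkn1b from 0.11 to 0.16. Cdkn2d had 0.57 (limma adjusted p = 0.106). The rise of Cdkn1a was not tested against that of its relatives.

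Of the partners of p21, 3 of 18 were called higher, with a median of 0.18 over the 18: Cdk1, Ccna2 and E2f1. Cdk1 and Ccna2 are also in the list of mitotic genes given next. Cdk1, the mitotic kinase, had levels of 1.24, 1.21 and 0.991 with corn oil and 3.38, 3.80 and 3.06 with monuron (2.98-fold, limma adjusted p = 0.0107). Of mitotic genes that p53 and p21 are known to lower, 11 of 15 were called higher and 0 lower, with a median of 1.32. Ccnb1, cyclin B1, rose 3.41-fold (adjusted p = 0.0102), Ccna2, cyclin A2, rose 2.94-fold (adjusted p = 0.00812), and the proliferation marker Mki67 rose 1.86-fold (adjusted p = 0.0138). The called mitotic genes and the called Cdkn1a probes were all higher in monuron-dosed cortex. Which cells carried each rise is not known in bulk cortex, p21 protein was not measured, and a link between the rises was not tested.

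Of core targets of NRF2, 3 of 9 were called higher, with a median of 1.70 over the 9. Nqo1 rose 5.33-fold, Gstp1 3.31-fold and Srxn1 3.24-fold (limma adjusted p of 0.0176, 0.00812 and 0.0319). Srxn1, sulfiredoxin, is also in the list of sestrin partners and amino acid sensing, and was the only one called of the 14 tested there, whose median was 0.06. Of ATF4, the amino acid stress factor known to induce Sesn2, and its other targets, 0 of 9 were called, with a median of -0.04. Of genes of senescence and its secreted factors, 1 of 8, Gdf15, was called, with a median of 0.25.

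Markers of other cells moved in part with treatment. Of 8 tested erythroid markers, 5 were called higher, and their summed level was 647 to 889 on the corn oil arrays and 1521 to 1635 on the monuron arrays. Of 8 tested leukocyte markers, 0 were called, with summed levels of 59.6 to 102 and 56.9 to 73.2, which overlapped. Of 8 tested markers of tubule injury, 2 were called higher, with summed levels of 37.1 to 43.0 and 48.5 to 63.9, led by Havcr1, the injury molecule KIM-1, at 13.4-fold (limma adjusted p = 0.00708). The part of each of these in the changes of Cdkn1a, Ccng1, Fas and Psrc1 was not tested.

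The called member probes kept their direction whichever array was left out, but most calls did not hold. Leaving out 1 array at a time, Cdkn1a A_44_P914438 had log2 fold changes of 1.92 to 2.23 and adjusted p-values of 0.0241 to 0.0671, and was called in 3 of 6 fits, those without corn oil replicate 1, corn oil replicate 3 or monuron replicate 1. Cdkn1a A_44_P515275, Ccng1 A_44_P235919, Fas A_42_P652897 and Psrc1 A_44_P838583 were each called in 1 of 6, with log2 fold changes of 2.17 to 2.59, 0.99 to 1.17, 0.70 to 0.77 and 0.74 to 0.90. Each of these calls was lost in the other 5 fits, and the fit that kept it was the one without corn oil replicate 1, monuron replicate 1, corn oil replicate 2 and corn oil replicate 3, in the same order. Without monuron replicate 2 or without monuron replicate 3, 0 of the 17 member probes were called by limma, and 10 and 11 had an unadjusted p under 0.05. Calls fell over the whole array in these fits, from 503 of 41125 probes to 73 of 41862 and 21 of 41643. An unadjusted p under 0.05 was then found for 5622 and 5919 probes. With all arrays 11 member probes had one, against 17.5% of all probes tested.

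**Figure D4:**
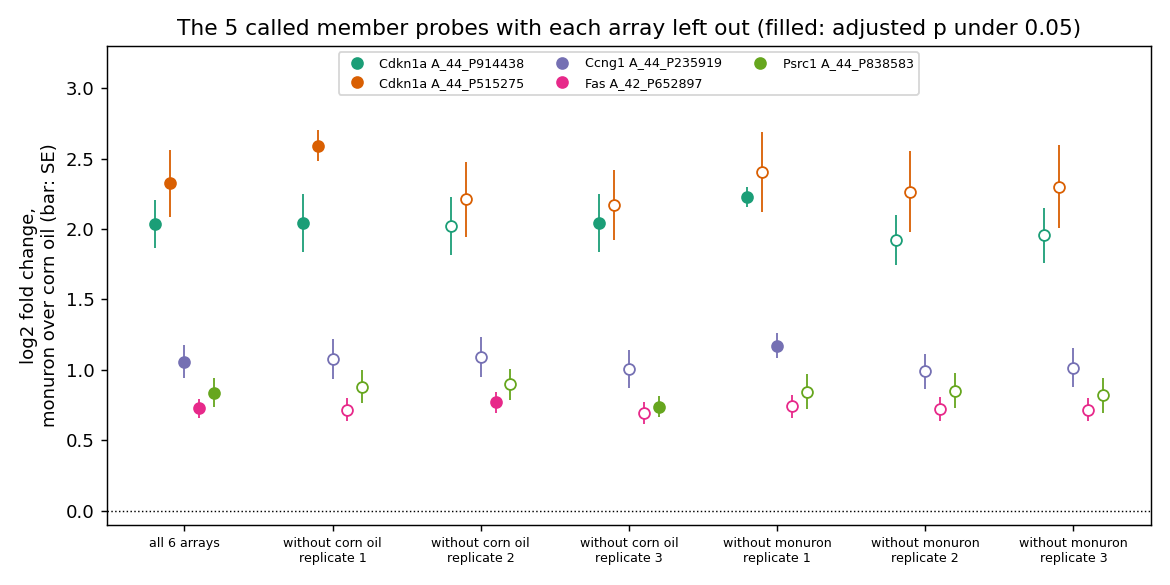
Log2 fold change of the 5 called member probes with all 6 arrays and with each array left out in turn, with bars for the standard error and filled points for an adjusted p under 0.05. The points of each probe stay at the same height, between 1.92 and 2.23 for Cdkn1a A_44_P914438, while most points with an array left out are open.

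The arrays highest in liver transcripts in their group, corn oil replicate 3 and monuron replicate 1, were left out together, a choice made after seeing the data. The log2 fold changes were then 2.24 and 2.25 for the Cdkn1a probes A_44_P914438 and A_44_P515275, 1.12 for Ccng1, 0.71 for Fas and 0.75 for Psrc1. These sizes were close to those with all arrays. With 4 arrays, 0 member probes were called (limma adjusted p of 0.101 to 0.185), and 7 of 17 had an unadjusted p under 0.05. Among all 41495 probes of that fit, 0 were called as well, and 5564 had an unadjusted p under 0.05. With the hepatocyte score of each array as a covariate, Cdkn1a A_44_P914438 and Ccng1 A_44_P235919 were called (adjusted p = 0.0405 each) and the other 3 had adjusted p-values of 0.0533 to 0.0577. The log2 fold changes were then 2.18, 2.53, 1.19, 0.77 and 0.95 in the same order of probes, none smaller than with no covariate.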

How the data were processed

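The deposited scanner files hold spot intensity on a linear scale from 6 arrays (3 corn oil, 3 monuron), read out with Agilent Feature Extraction (version 10.7 in the submitters' processing notes). The authors' deposited value table, a linear ratio to 1 constant per array, served as an alternative. The labels give group, dose and replicate number, and the design text calls the replicates biological. Control spots (1439) and outlier flags were left out. Each array's processed signals were divided by their 75th percentile and put on the log2 scale. The 41125 probes that every array of corn oil, of monuron or of both marked as well above background were tested one by one in limma 3.58.1 (R 4.3.3), using a two-sided moderated test with p-values adjusted over all probes by Benjamini-Hochberg at a threshold of 0.05. Errors are SD for levels and SE for log2 fold changes. The functions were tested on simulated data.

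Accessions were matched to a RefSeq table (GRCr8), which named 28193 probes (45.8%). The array design cites an older build, so no probe coordinates are given. The plan counted on gene names and mean spot signals; the files hold accessions and median spot signals, which were used. The members and lists were chosen with earlier results of these data known. All 10 members are named with every probe; of each list, called genes and up to 4 with the smallest p could be named, and a few uncalled relatives were named after their values were seen. A gene that no array of a group detected well is given as a bound, the other group's mean over the higher of the lowest well-detected signal and the probe's own. Some list genes are not reported here. Probe pairs were compared by exact permutation over arrays.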

Additional observations from a re-analysis of the deposited data

How the results depend on the processing

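With all arrays, 503 probes (342 higher, 161 lower), 5 member probes and 21 list genes were called. For all probes the counts were 137 with the hepatocyte score as covariate, 116 with no detection filter, 932 with normexp background correction and 958 with trend and robust variance. For member probes they were 3 with 1 probe per gene, 2 with the hepatocyte score, 2 with probes averaged per gene and 1 with no detection filter, and for list genes 12 with no detection filter. Leaving out each array in turn gave 21 to 190 probes, 0 to 2 member probes and 4 to 14 list genes. Without corn oil replicate 3 and monuron replicate 1, the arrays richest in liver transcripts, 0 probes were called by limma, with 5564 at an unadjusted p under 0.05, and so 0 member probes and 0 list genes. Scaling to the spike-in controls moved the log2 fold changes of probes alike, by -0.49 with a median of all probes then at -0.47, so a sign that turned there says nothing of a member relative to other probes. On that scale 28616 probes (410 higher, 28206 lower), 8 member probes (6 higher, 2 lower) and 95 list genes were called. With no scaling, 435 of all probes were called higher and 78 lower. The log2 fold changes of Cdkn1a A_64_P123895 (-0.34), Mdm2 A_43_P16885 (-0.032) and A_44_P634946 (-0.19), Btg2 A_44_P398142 (-0.068) and Zmat3 A_44_P1019245 (-0.31) changed sign by that shift, and each lay above the median of all probes. Zmat3 A_64_P115928 ranged from -3.20 to 0.078 with 1 array left out, the last without corn oil replicate 2, and Sesn2 turned to 0.025 without the liver pair. Over all alternatives, 296 values of member probes kept direction and side of the threshold, 40 lost the call, 2 gained one and 7 changed sign.

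Replicate numbers did not pair the arrays (correlations of same-numbered deviations of -0.08, 0.10 and -0.16). With the replicate number as a block, 0 probes, 0 member probes and 0 list genes were called by limma, with 6179 probes and 12 member probes at an unadjusted p under 0.05. Depth is not a count here; dim probes near background, and 3 arrays per group on separate slides, limit precision.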

Other observations

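Over the 6 arrays, the genes whose level followed the called Ccng1 probe A_44_P235919 most closely, among 12065 genes with a symbol, were Lrrc40 (Pearson r = 0.997), Bspry (0.996), Ufd1 (0.995), Mki67 (0.994) and Sugp1 (0.994). Of these only Mki67 was called, at a log2 fold change of 0.90, and the others ranged from 0.11 to 0.32. Among the members, the brightest probe of Fas came at rank 51 (r = 0.981) and that of Psrc1 at rank 130 (r = 0.969). The brightest probes of Cdkn1a, Mdm2, Btg2, Phlda3 and Zmat3 came at ranks 696, 1116, 1257, 1755 and 3733, and Sesn2 at 8626 (r = -0.39). For Cdkn1a that probe was A_64_P123895, which was not called. The called Cdkn1a probes were not ranked, so rank 696 does not describe them. The arrays of a group share slide and scan day, so a likeness over 6 arrays is a description only.

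Single spots stood far from the other arrays in probes chosen here after their values were seen. Zmat3 A_64_P115928 was at a level of 2.25 on corn oil replicate 2 and at 0.0240 to 0.0294 elsewhere. Hmox1, the heme oxygenase gene, was at 49.1 on monuron replicate 1 and at 0.857 and 0.859 on the other monuron arrays, all above the corn oil arrays at 0.338 to 0.469. Prkaa1, a subunit of the energy sensor AMPK, was at 1.76 on corn oil replicate 3 and at 0.160 to 0.189 elsewhere.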
